A study of Homo sapiens with 14 samples.

Results

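The genes described here are 36 genes of DNA replication and of the passage from G1 into S phase, measured in WI-38, a strain of diploid human lung fibroblasts. They were taken from the expression table by symbol, and each had 1 row on the array. They are 36 of the 18377 genes that had a row with a single symbol, among 28869 rows in all. By role they comprise 11 genes of origin licensing, 6 of helicase activation, 6 of the replicative polymerases, 5 of the sliding clamp and its loader, 2 of Okazaki fragment joining, 4 of nucleotide supply and 2 E-type cyclins. In all, 14 RNA samples were measured on 14 arrays in 7 labelled groups of 2. The groups are primary cells at passage 19, hTERT-immortalized cells lettered A, taken at passages 39, 50, 58, 67 and 95, and hTERT cells lettered B, taken at passage 96. Each hTERT group is written as its letter and passage (A39 to A95, B96). The sources used here do not say what the letters stand for or whether a culture began as 1 clone. hTERT is the catalytic subunit of telomerase, whose forced expression lets fibroblasts divide beyond their usual limit. All cultures were passaged weekly from a fixed number of seeded cells, and the study presents them as a course of evolution in culture. Each value below is a log2 signal, r1 and r2 stand for replicates 1 and 2 of a label, and differences between arrays are given on the same log2 scale.

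Before a cell replicates its DNA, the origin recognition complex, CDC6 and CDT1 load the ring-shaped MCM helicase onto origins in G1, which licenses them. At the start of S phase, cyclin E with CDK2 and other kinases allows CDC45 and the GINS complex to join the ring, and the polymerases, the clamp and enzymes that make deoxynucleotides follow. Most of these genes are known targets of the E2F transcription factors, which the retinoblastoma protein holds back in resting cells, so their transcripts are abundant in cycling cells and scarce in arrested ones. Fibroblasts that leave the cell cycle are known to lose them. In bulk RNA, fewer cycling cells and less of these transcripts per cell cannot be told apart.

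Several arrays did not follow their labels. TERT, the gene introduced to immortalize the cells, was at 7.07 in the array labelled primary r1 and at 11.70 in the array labelled primary r2, inside the range of 10.67 to 12.18 of the 12 arrays labelled hTERT. Of the 14 arrays, 0 were most similar to the array of the same label. There were 5 pairs in which each array was the other's closest, by Pearson correlation over all rows: primary r2 with A39 r1, A39 r2 with A50 r1, A50 r2 with A58 r1, A58 r2 with A67 r1, and A95 r2 with B96 r1. Each of the 5 pairs joined r2 of a label with r1 of the next label. A67 r2 and A95 r1 stand in the same order. They were not such a pair, but their TERT values were 11.16 and 11.18. Whether the labels are offset was not tested. The groups were kept as labelled, so an array is always named by its label. A95 r2 and B96 r1 also had a narrower spread of values, with an SD over all rows of 1.89 and 1.91 against 1.98 to 2.03 in the other arrays, and only 4 and 3 rows at 0 against 12 to 20. Of the 12 fibroblast markers, COL1A1 lay between 12.59 and 13.36 and VIM between 12.55 and 13.09. All but S100A4 stayed at 9.15 or above in every array, the lowest value being that of LUM in A95 r2. S100A4 ran from 6.26 in B96 r1 and 6.89 in A95 r2 to 11.37 in A58 r2. Among markers of other cell types, epithelial CDH1 lay between 5.70 and 6.26, endothelial VWF between 6.46 and 6.83 and leukocyte PTPRC between 5.20 and 5.90, whereas KRT18, TEK, CD68 and KRT8 reached 11.95, 10.76, 10.51 and 10.25.

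The replication genes were low and high in the same arrays. Scored as the median over the 36 genes of the deviation from each gene's own mean, 4 arrays were low, at -0.84 in A39 r2, -0.89 in A50 r1, -0.67 in A50 r2 and -0.83 in A58 r1. The highest scores were 0.96 in A67 r2 and 0.92 in A95 r1, followed by 0.42 in A58 r2, 0.39 in A67 r1 and 0.29 in primary r1. The other 5 arrays, primary r2, A39 r1, A95 r2, B96 r1 and B96 r2, lay between -0.07 and 0.14. The 4 low arrays were among the lowest 4 values of the gene in 34, 34, 32 and 34 of the 36 genes, in the order named, against 25.7%, 24.8%, 28.7% and 26.8% of all rows. A67 r2 was among the highest 4 values in 36 of 36 genes and A95 r1 in 35 of 36, against 22.7% and 32.5% of all rows. A67 r2 held the highest value of all 14 arrays for 26 genes, and the share of all rows for which it did so was not counted. These ranks were counted after the arrays had been seen to differ, and are a description. The median range of a gene from its lowest to its highest array was 1.88 for the 36 genes and 0.79 for all genes, and 6.4% of all genes had a range of at least 1.88.

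**Figure D1:**
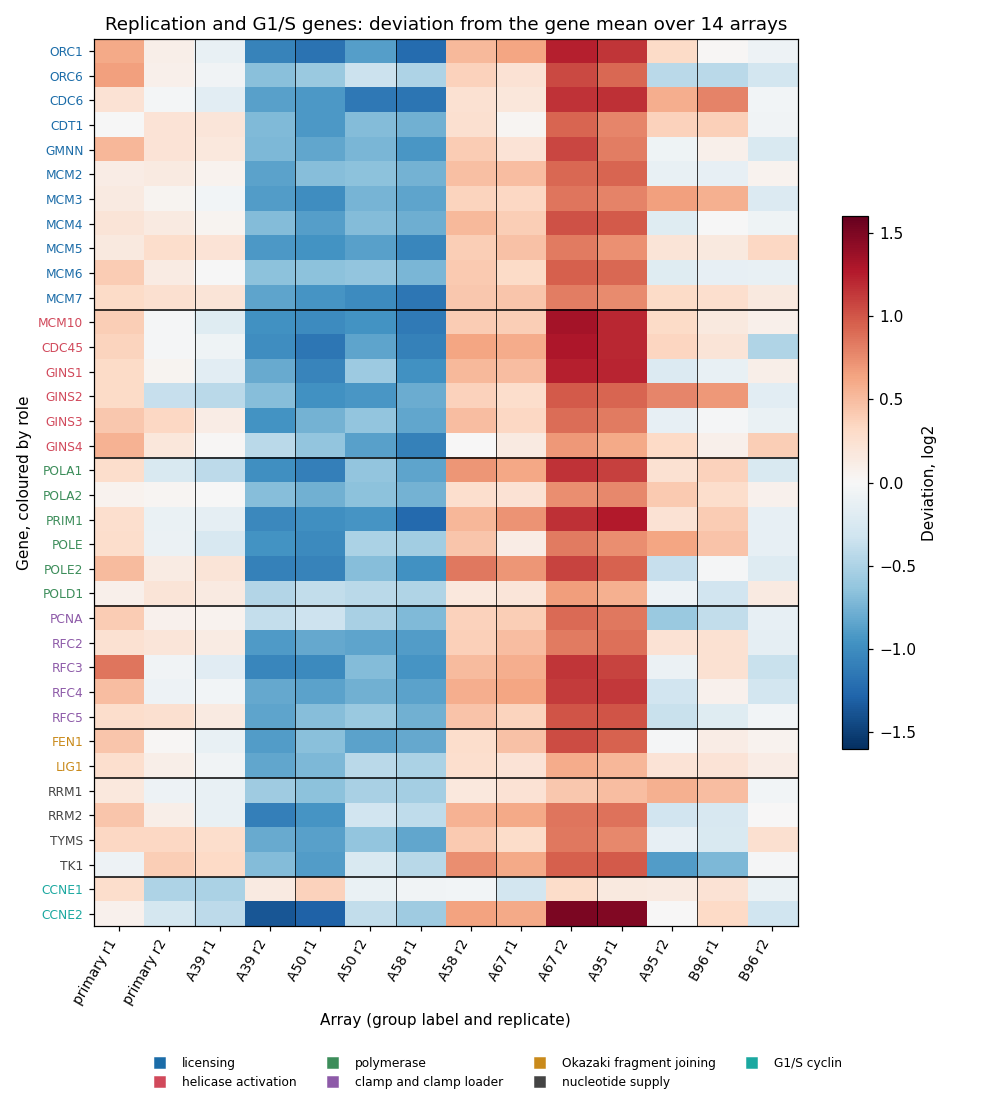
Deviation of each of the 36 genes from its own mean over the 14 arrays (colour, log2), with genes in rows grouped by role and arrays in columns in label order, vertical lines separating labels. Arrays A39 r2, A50 r1, A50 r2 and A58 r1 are blue in nearly every row, A67 r2 and A95 r1 are red, and the 2 arrays of a label often differ in colour.

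Much of the spread lay between the 2 arrays of a label. Within A58, r2 was above r1 for 36 of 36 genes, with a median difference of r1 minus r2 of -1.23. Within A39, r1 was above r2 for 35 of 36 genes (median 0.81), and within A67, r2 was above r1 for 36 of 36 (median -0.56). Within primary, A50, A95 and B96 the medians of r1 minus r2 were 0.30, -0.12, 0.90 and 0.11. Over all rows, the 7 medians of r1 minus r2 lay between -0.06 and 0.06. In the 5 closest pairs, whose arrays carry different labels, the median absolute difference of the 36 genes was 0.08 to 0.15, against 0.21 to 1.23 in the 7 pairs that share a label. For the replication genes, each of these 5 differences was smaller than each of the 7 within a label. The same held for all rows, at 0.10 to 0.16 in the 5 pairs and 0.19 to 0.33 within a label. The 5 pairs were picked as the closest over all rows, so this order was largely set in advance and is not particular to the 36 genes.

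The promoters of these genes were searched for E2F words, because E2F factors are the known regulators that the genes share. RefSeq's promoter table for GRCh38.p14, with 250 bases before and 50 after a start site, held 41 promoters of 32 of the 36 genes; MCM4, MCM5, GINS4 and CCNE2 had no entry. A word was TTTGGCGC, TTTCGCGC or TTTCCCGC on either strand, and words could overlap each other. At least 1 word was present in 18 of 41 promoters (43.9%), belonging to 18 genes, and in 961 of all 35116 promoters of the table (2.74%). The G and C content of the 41 promoters had a median of 66.0%, against 58.7% in all. Of the 24 words found, 15 lay within 60 bases of the start site. The 4 promoters printed here belong to the genes with a word that varied most between arrays, 1 each for licensing, helicase activation, polymerase and clamp loading. Each is read 5′ to 3′ along the gene's strand, with the E2F word in capitals and all else in lower case.
CDC6, chr17:40287629-40287928, plus strand: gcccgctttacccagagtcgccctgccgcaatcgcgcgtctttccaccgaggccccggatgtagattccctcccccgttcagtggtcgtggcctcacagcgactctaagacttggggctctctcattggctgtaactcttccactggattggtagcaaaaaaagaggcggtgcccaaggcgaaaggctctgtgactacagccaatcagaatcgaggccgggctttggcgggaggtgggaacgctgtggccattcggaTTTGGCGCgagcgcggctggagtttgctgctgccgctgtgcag
GINS1, chr20:25407423-25407722, plus strand: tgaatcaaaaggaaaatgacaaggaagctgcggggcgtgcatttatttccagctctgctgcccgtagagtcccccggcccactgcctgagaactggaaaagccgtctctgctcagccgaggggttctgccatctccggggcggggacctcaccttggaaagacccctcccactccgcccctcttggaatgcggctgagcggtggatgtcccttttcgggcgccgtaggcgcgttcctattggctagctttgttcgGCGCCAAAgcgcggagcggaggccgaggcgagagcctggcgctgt
POLA1, chrX:24693668-24693967, plus strand: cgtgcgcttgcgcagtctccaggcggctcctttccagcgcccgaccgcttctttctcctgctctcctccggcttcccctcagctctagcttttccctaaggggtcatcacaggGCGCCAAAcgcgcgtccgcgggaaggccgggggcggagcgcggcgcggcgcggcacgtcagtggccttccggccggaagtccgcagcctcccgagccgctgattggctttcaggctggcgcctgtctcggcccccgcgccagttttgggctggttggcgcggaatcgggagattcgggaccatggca
RFC3, chr13:33817899-33818198, plus strand: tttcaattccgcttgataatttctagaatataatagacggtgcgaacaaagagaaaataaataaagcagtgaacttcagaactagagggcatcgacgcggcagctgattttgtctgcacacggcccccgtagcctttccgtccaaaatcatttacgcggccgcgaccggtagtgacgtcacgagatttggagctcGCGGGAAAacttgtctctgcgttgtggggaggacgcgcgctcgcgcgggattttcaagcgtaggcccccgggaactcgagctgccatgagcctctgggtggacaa
The word of CDC6 is TTTGGCGC in the direction of the gene, at positions 8 to 15 of the transcript. Those of GINS1 and POLA1 are the same word on the opposite strand, at positions 6 to 13 of the transcript in GINS1 and from -137 to -130, before the start site, in POLA1. The word of RFC3 is TTTCCCGC on the opposite strand, from -55 to -48. A match describes the letters only and shows neither a binding site nor a cause, and no match says only that these letters are not in the window. The 18 genes with a word had a median range over the arrays of 1.85 (1.42 to 2.34), and the 14 genes without one had 1.91 (0.87 to 2.51). A further word, TTTGAA on either strand, which is the core of the cell cycle homology region of genes expressed late in the cycle, was chosen after the values were seen. It was present in 1 of 41 promoters (2.4%), against 15.16% of all promoters. Neither this share nor that of the E2F words was set against promoters of like G and C content.

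Licensing genes were low together in the same 4 arrays. For ORC6, A95 r2 and B96 r1 were low as well, both at 8.41 against 8.50 in A50 r2. ORC1, the large subunit of the origin recognition complex, had the widest range of the 11 and read 8.96 and 8.45 (primary), 8.24 and 7.29 (A39), 7.18 and 7.47 (A50), 7.12 and 8.87 (A58), 8.99 and 9.60 (A67), 9.50 and 8.66 (A95), and 8.37 and 8.28 (B96). The arrays A39 r2, A50 r1, A50 r2 and A58 r1 lay below all 10 others, and of the 2 arrays labelled A58, r1 was the lowest of all 14 and r2 lay above both arrays labelled B96. From A39 to A95 the mean of ORC1 differed by 1.32 ± 0.53 (SE, n = 2 arrays a group; limma, adjusted p = 0.528 over 28869 rows). CDC6, which works with CDT1 to load the helicase, differed by 1.40 ± 0.49 in that comparison. MCM3, a subunit of the helicase ring, had a slope over the A passages of 0.27 ± 0.08 per 10 passages (adjusted p = 0.132). The 6 ring subunits MCM2 to MCM7 ranged over 1.69 to 1.98 between their lowest and highest arrays. ORC6, the smallest subunit of the origin complex, had a range of 1.72, CDT1 of 1.84 and CDC6 of 2.34. GMNN encodes geminin, which binds CDT1 and blocks renewed licensing, and it was low and high in the same arrays as the genes whose products load the ring, with a range of 2.00.

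The helicase activation genes had a median difference between A39 and A95 of 1.15. MCM10, which helps the loaded helicase start to unwind, read 9.29 and 8.88 (primary), 8.71 and 7.93 (A39), 7.89 and 7.94 (A50), 7.77 and 9.30 (A58), 9.29 and 10.23 (A67), 10.10 and 9.20 (A95), and 9.06 and 8.98 (B96). Its 4 low arrays were the 4 of ORC1, and the 2 highest were A67 r2 and A95 r1. GINS2, a subunit of the GINS complex that rides with the helicase, read 8.76 and 8.08 (primary), 8.03 and 7.77 (A39), 7.49 and 7.52 (A50), 7.66 and 8.82 (A58), 8.74 and 9.44 (A67), 9.39 and 9.23 (A95), and 9.15 and 8.29 (B96). Here A95 r2 and B96 r1 were high as well, so that the 2 arrays labelled A95 differed by 0.16 only, whereas for MCM10 they differed by 0.90. GINS2 had the smallest p of the 36 genes in the trend over the A passages, with a slope of 0.31 ± 0.08 per 10 passages (adjusted p = 0.0898). CDC45, the partner of the MCM ring and of GINS in the active helicase, ranged over 2.46, GINS1 over 2.30, GINS3 over 1.84 and GINS4 over 1.77.

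Polymerase genes followed the same course. PRIM1 encodes the catalytic primase subunit, which lays down the RNA primers, and read 9.84 and 9.47 (primary), 9.43 and 8.54 (A39), 8.60 and 8.63 (A50), 8.33 and 10.11 (A58), 10.30 and 10.74 (A67), 10.84 and 9.81 (A95), and 9.98 and 9.45 (B96). The 4 low arrays reached at most 8.63, and the next values up were 9.43 in A39 r1 and 9.45 in B96 r2. POLE, the catalytic subunit of the leading-strand polymerase, read 9.28 and 8.91 (primary), 8.74 and 8.05 (A39), 7.98 and 8.50 (A50), 8.45 and 9.45 (A58), 9.12 and 9.83 (A67), 9.75 and 9.63 (A95), and 9.46 and 8.87 (B96). The arrays labelled A95 and B96 r1 were high for POLE together with A67 r2, and its slope over the A passages was 0.27 ± 0.07 per 10 passages (adjusted p = 0.103). POLA1 and POLA2, the catalytic and accessory subunits of the polymerase that extends the primers, ranged over 2.24 and 1.54. POLE2, the partner of POLE, ranged over 2.16. POLD1, the catalytic subunit of the lagging-strand polymerase, had a range of 1.15, and only CCNE1 among the 36 genes had a smaller one.

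In the clamp and clamp loader group, RFC3, a small subunit of the loader that opens the clamp around DNA, read 10.56 and 9.64 (primary), 9.52 and 8.66 (A39), 8.68 and 9.01 (A50), 8.76 and 10.21 (A58), 10.28 and 10.84 (A67), 10.78 and 9.61 (A95), and 9.94 and 9.34 (B96). Primary r1 was among the highest arrays for this gene, and the difference of A39 from primary was -1.01 ± 0.55 (adjusted p = 1), the widest of the 36 in that comparison. Without primary r1 the difference of RFC3 was -0.55, and those of ORC1 and RRM2 were wider, at -0.685 and -0.695. The partners of RFC3, namely RFC2, RFC4 and RFC5, ranged over 1.79, 1.99 and 1.85. PCNA, the clamp itself, read 11.64 and 11.31 (primary), 11.29 and 10.85 (A39), 10.91 and 10.72 (A50), 10.53 and 11.61 (A58), 11.63 and 12.14 (A67), 12.08 and 10.64 (A95), and 10.84 and 11.11 (B96). Unlike GINS2 and POLE, it was low in A95 r2 and B96 r1, within the range of A39 r2, A50 r1, A50 r2 and A58 r1, and its mean differed between A39 and A95 by 0.29 ± 0.45 (adjusted p = 0.824).

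FEN1, the flap nuclease that trims Okazaki fragments, read 9.93 and 9.51 (primary), 9.37 and 8.60 (A39), 8.82 and 8.64 (A50), 8.67 and 9.77 (A58), 9.96 and 10.54 (A67), 10.43 and 9.47 (A95), and 9.61 and 9.55 (B96). The 4 low arrays lay between 8.60 and 8.82, and the highest were A67 r2 and A95 r1. LIG1, the ligase that seals the fragments, ranged over 1.42. Between A39 and A95 the means of FEN1 and LIG1 differed by 0.97 ± 0.42 (adjusted p = 0.535) and 0.82 ± 0.30 (adjusted p = 0.528).

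Genes of nucleotide supply parted in the arrays A95 r2 and B96 r1. RRM2, the regulated small subunit of ribonucleotide reductase, read 11.77 and 11.41 (primary), 11.20 and 10.23 (A39), 10.38 and 11.01 (A50), 10.92 and 11.88 (A58), 11.93 and 12.18 (A67), 12.19 and 11.01 (A95), and 11.07 and 11.33 (B96). A39 r2 and A50 r1 were lowest, and A50 r2 and A58 r1 were close to both A95 r2 and B96 r1. RRM1, the large subunit of the same enzyme, read 11.85 and 11.60 (primary), 11.57 and 11.12 (A39), 11.03 and 11.17 (A50), 11.14 and 11.85 (A58), 11.92 and 12.12 (A67), 12.18 and 12.25 (A95), and 12.18 and 11.64 (B96). A95 r2 had the highest RRM1 value of all 14 arrays, and this was the only one of the 36 genes that was higher in A95 r2 than in A95 r1. The slope of RRM1 over the A passages was 0.19 ± 0.05 per 10 passages (adjusted p = 0.0953). TK1, the salvage enzyme that phosphorylates thymidine, went the other way in these arrays and read 10.34 and 10.81 (primary), 10.74 and 9.72 (A39), 9.52 and 10.17 (A50), 9.98 and 11.16 (A58), 11.02 and 11.38 (A67), 11.40 and 9.52 (A95), and 9.70 and 10.40 (B96). A95 r2 equalled A50 r1 as its lowest array, and the slope of TK1 was 0.09 ± 0.11 (adjusted p = 0.695). TYMS, which makes thymidylate from deoxyuridylate, ranged over 1.71.

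The 2 E-type cyclins had the widest and the narrowest range of the 36 genes. CCNE2 ranged over 2.88 and read 8.88 and 8.53 (primary), 8.40 and 7.44 (A39), 7.52 and 8.42 (A50), 8.25 and 9.46 (A58), 9.42 and 10.32 (A67), 10.30 and 8.82 (A95), and 9.13 and 8.50 (B96). A39 r2 and A50 r1 were low for CCNE2, whereas A50 r2 and A58 r1 lay near A39 r1. CCNE1, which also encodes a cyclin that activates CDK2, ranged over 0.87 and read 8.11 and 7.34 (primary), 7.33 and 7.97 (A39), 8.20 and 7.73 (A50), 7.78 and 7.79 (A58), 7.54 and 8.12 (A67), 7.99 and 7.97 (A95), and 8.06 and 7.72 (B96). For CCNE1 the arrays A39 r2 and A50 r1, among the lowest 4 in 34 of the 36 genes, were above the median of 7.88, and 41.6% of all genes had a range of at least 0.87. Between A39 and A95 the means differed by 1.64 ± 0.58 for CCNE2 (adjusted p = 0.528) and by 0.33 ± 0.31 for CCNE1 (adjusted p = 0.699). The difference between the 2 genes was not tested.

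**Figure D2:**
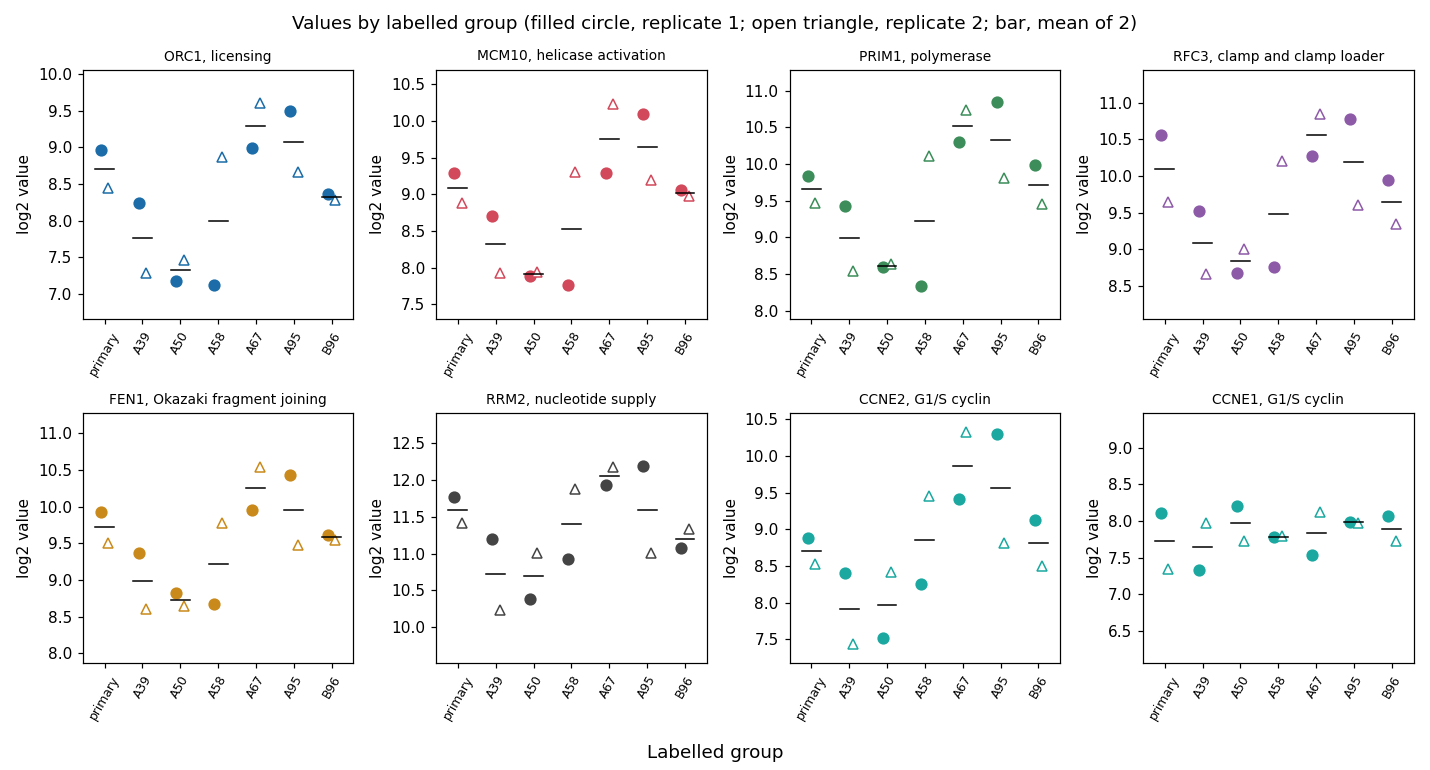
log2 values of 8 genes by labelled group: the widest-ranging gene of each role and CCNE1, with filled circles for r1, open triangles for r2 and a bar for the mean of the 2 arrays; each panel has its own vertical axis of equal span. In 7 panels the 2 arrays labelled A58 lie far apart, and CCNE1 stays between 7.33 and 8.20.

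Primary cells and A39, the earliest hTERT passage, were compared first. All 36 genes had a lower mean in A39, against 43.9% of all rows, with a median difference of -0.62 (all rows 0.03). The widest differences were those of RFC3, -1.01 ± 0.55, ORC1, -0.94 ± 0.53, and RRM2, -0.88 ± 0.45, and the narrowest was that of CCNE1, -0.08 ± 0.31. Without primary r1, RFC3 was at -0.55 and no longer the widest. Role medians ran from -0.43 for the cyclins and -0.49 for nucleotide supply to -0.69 for the polymerases. Both arrays labelled A39 lay below both labelled primary for 29 genes (12.8% of all rows did so). Under limma, 0 of 36 genes had an unadjusted p under 0.05, against 0.502% of all rows, and 0 passed an adjusted p of 0.05, nor did any row (0%); the smallest p of the 36 was 0.065. The median was -0.24 without A39 r2, with 3 genes higher and 33 lower, and -1.03 without A39 r1, with 8 genes at p under 0.05 (1093 of all 28869 rows in either direction). Without primary r2, the array whose TERT level goes against its label, it was -0.75, with 1 gene at p under 0.05 (1170 rows).

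From A39 to A95, all 36 genes had a higher mean, against 58.6% of all rows, and the median difference was 0.85 (all rows 0.07). CCNE2 differed by 1.64, GINS2 by 1.41 ± 0.41, CDC6 by 1.40 and POLA1 by 1.37 ± 0.49, and 11 genes differed by at least 1 (1.89% of all rows were higher by that much). Medians by role were 0.83 for licensing, 1.15 for helicase activation, 1.12 for the polymerases, 0.85 for the clamp and its loader, 0.89 for Okazaki fragment joining, 0.73 for nucleotide supply and 0.99 for the cyclins. Both arrays labelled A95 lay above both labelled A39 for 19 genes, against 22.7% of all rows. An unadjusted p under 0.05 was found for 15 genes, against 4.88% of all rows, namely 3 of 11 in licensing, 3 of 6 in helicase activation, 4 of 6 polymerase genes, 1 of 5 in the clamp group, 2 of 2 in Okazaki joining, 1 of 4 in nucleotide supply and 1 of 2 cyclins. No gene passed the adjusted threshold, nor did any row (0%), and adjusted p-values of the 36 ran from 0.528 to 0.90. A single array moved these values: the median was 0.44 with 1 gene at p under 0.05 without A39 r2 (1899 of all 28869 rows in either direction), and 0.52 with 3 genes (5026 rows), and 32 of 36 higher, without A95 r1. In both, the share of the 36 genes was below that of all rows. It was 1.30 with 22 genes without A39 r1 (1867 rows), and 1.30 with 26 genes without A95 r2 (2017 rows). Of the fibroblast markers, 11 of 12 had a lower mean in A95, with a median of -0.45. Medians of the epithelial (6), endothelial (5) and blood (4) markers were -0.14, 0.20 and -0.18, with single genes far from them. KRT19 and KRT18 differed by -1.48 and -1.04, TEK by -2.23 and HBB by -1.43. Endothelial PECAM1 went the other way, by 0.94, at 7.04 and 6.20 in A39 and 6.68 and 8.44 in A95. Higher in A95 were 2 of 6 epithelial, 3 of 5 endothelial and 1 of 4 blood markers, against 58.6% of all rows. The part of these markers in the result was not tested.

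Between A95 and B96, all 36 genes had a lower mean in B96, against 50.2% of all rows, with a median of -0.44 (all rows -0.01). CDC45 differed by -0.92 ± 0.54, ORC1 by -0.76 ± 0.53 and CCNE2 by -0.75 ± 0.58, and CCNE1 by -0.09 ± 0.31. Both arrays labelled B96 lay below both labelled A95 for 8 genes, against 9.84% of all rows. In limma, 0 genes had an unadjusted p under 0.05 (0.904% of all rows) and 0 passed the adjusted threshold, where 0% of rows did. The values rested on A95 r1. Without it the median was -0.01, with 16 genes higher and 20 lower, and without A95 r2 it was -0.94, with 7 genes at p under 0.05 (1904 of all 28869 rows in either direction). These 3 contrasts share the arrays labelled A39 and A95, so their directions are not independent of each other.

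**Figure D3:**
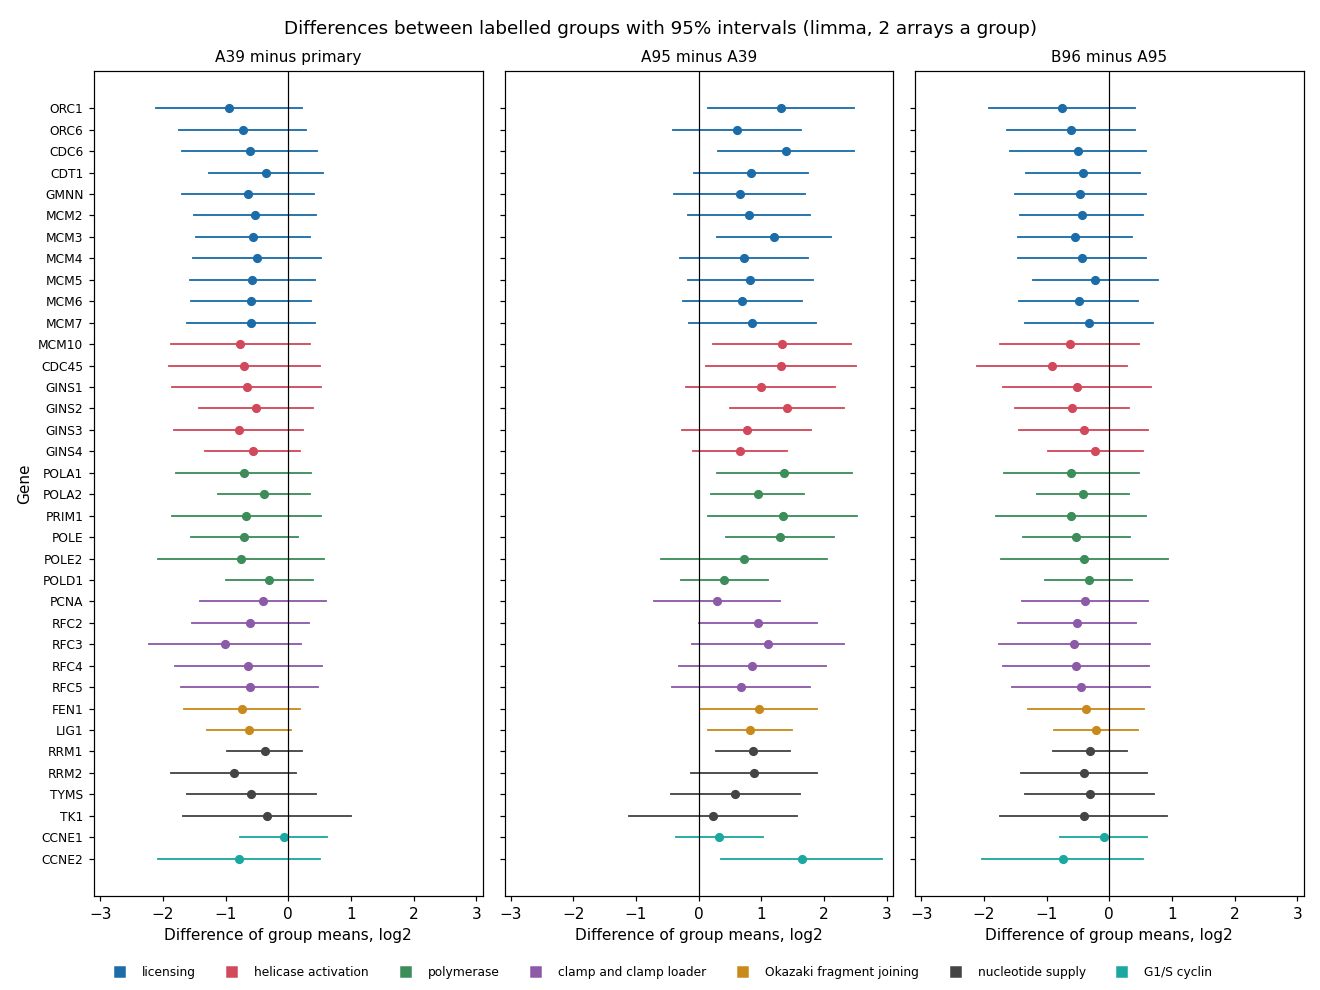
Difference of labelled group means (points, log2) with 95% intervals from limma (lines) for the 36 genes in 3 contrasts, coloured by role. All points lie left of 0 for A39 minus primary and B96 minus A95 and right of 0 for A95 minus A39, and most intervals cross 0.

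Over the 10 arrays labelled A, a linear trend with passage had a positive slope for 36 of 36 genes, against 58.5% of all rows. The median slope was 0.21 per 10 passages (all rows 0.01). CCNE2 had the steepest slope, 0.34 ± 0.12, followed by CDC6, 0.32 ± 0.10, and GINS2, 0.31 ± 0.08. CCNE1 was lowest at 0.04 ± 0.04, after TK1 and PCNA at 0.09 ± 0.11 and 0.09 ± 0.09. Role medians were 0.21 for licensing, 0.27 for helicase activation, 0.24 for the polymerases, 0.21 for the clamp group, 0.20 for Okazaki joining, 0.18 for nucleotide supply and 0.19 for the cyclins. In 20 genes the unadjusted p was under 0.05, against 9.89% of all rows. None passed the adjusted threshold, which 81 rows (0.281%) passed, and the smallest adjusted p among the 36 was 0.0898, of GINS2. The values did not climb evenly, since the scores of A50 were below that of A39 r1 and the score of A95 r2 was below those of A58 r2, A67 r1 and A67 r2. Without A95 r2 the median slope was 0.30 and 34 genes had a p under 0.05, as did 5065 of all 28869 rows in either direction. Without A95 r1 it was 0.18 with 7 genes, a share no larger than that of all rows (6346), and without A39 r2 it was 0.19 with 13 genes (4941 rows). Over passages 39 to 67 alone it was 0.39.

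Some alternative fits of the trend had members past the adjusted threshold. With array weights, 27 of the 36 genes passed it, among 2171 rows, with CCNE2 at a slope of 0.46 (adjusted p = 0.0236) and GINS2 at 0.33 (adjusted p = 0.026). In that fit A95 r2 received a weight of 0.19 and A95 r1 one of 2.58, and the other 8 arrays lay between 0.74 and 1.40. With passage as a random block, GINS2 and RRM1 passed, among 729 rows, at adjusted p-values of 0.0467 and 0.0482. That fit estimated a correlation of -0.164 between arrays of the same passage. A negative value does not make it a stricter fit than the main one. With the rank of passage in place of its number, GINS2 and POLE passed, among 489 rows, at adjusted p-values of 0.0434 and 0.0498. A test for any difference among the 7 labelled groups gave an unadjusted p under 0.05 for 15 of 36 genes (4.62% of all rows) and an adjusted p under 0.05 for 0 genes and 0% of rows. Among the 36 genes the smallest p in that test was 0.0127, of GINS2, and over all rows it was 5.9e-05.

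**Figure D4:**
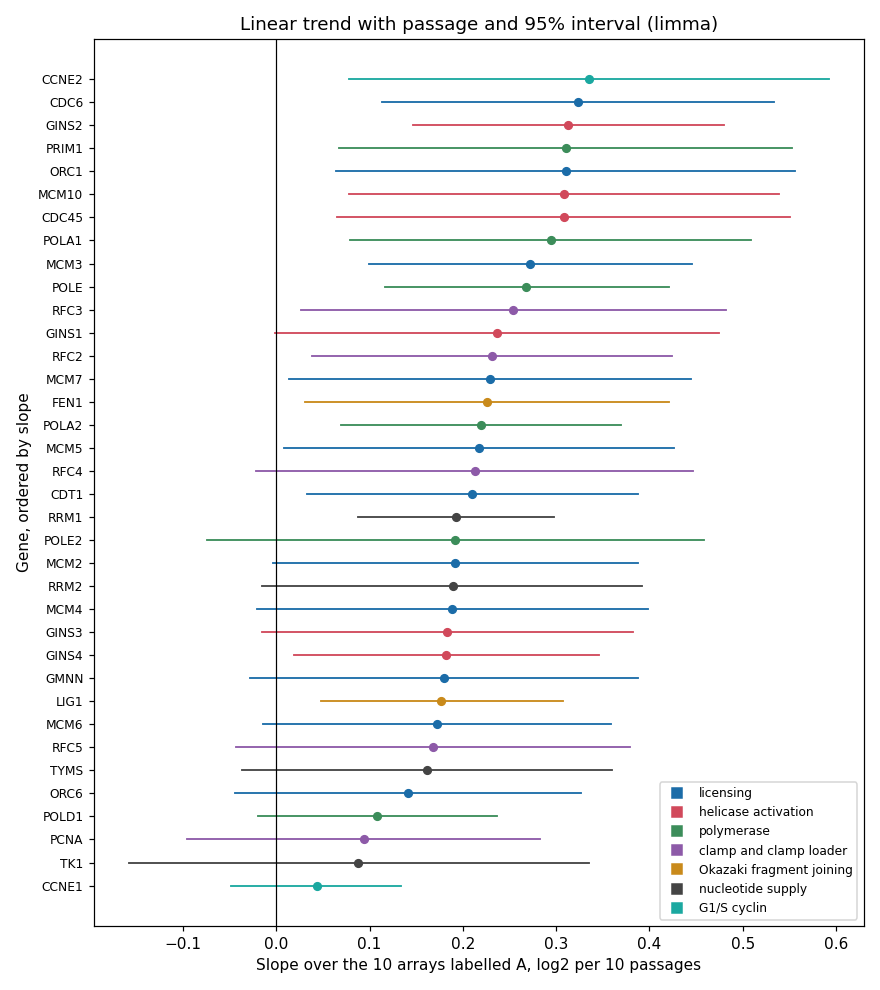
Slope of each gene with passage over the 10 arrays labelled A (points, log2 per 10 passages) with its 95% interval from limma (lines), ordered by slope and coloured by role. All 36 slopes are above 0, from 0.04 for CCNE1 to 0.34 for CCNE2, and the intervals of 16 genes reach 0 or below.

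The array labelled A95 r2 divided the members. Against A95 r1 it was lower by a median of 0.90, but the difference ran from -0.07 for RRM1 to 1.88 for TK1. It was small for RRM1, CCNE1 (0.02), POLE (0.12), MCM3 (0.13) and GINS2 (0.16), and wide for TK1, CCNE2 (1.48) and RFC4, PCNA and GINS1 (1.44 each). The licensing genes covered 0.13 to 1.35, so genes of 1 complex were split, with MCM3 at 0.13, MCM7 at 0.45, MCM5 at 0.53 and MCM2, MCM6 and MCM4 at 1.05, 1.12 and 1.18. Among the clamp genes the smallest difference was 0.65, in RFC2. Read across the 14 arrays, A95 r2 was among the highest 4 values, ties counted, for 7 genes, CDC6, CDT1, MCM3, GINS2, POLA2, POLE and RRM1, and among the lowest 4 for 4 genes, ORC6, PCNA, RRM2 and TK1. Over all rows this array was among the highest 4 in 44.4% and among the lowest 4 in 29.1%, so both counts lie below the share of all rows and the names only describe the genes at each end. For B96 r1, the array closest to it, the counts were 8 and 3 of 36, against 40.5% and 29.8% of all rows. After quantile normalization, which gives all arrays the same spread, the median difference between the arrays labelled A95 was 0.82, with RRM1 at -0.17, MCM3 at -0.01 and TK1 at 1.79. This split was picked out after the values were seen and rests on 1 array against 1, so it carries no test.

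**Figure D5:**
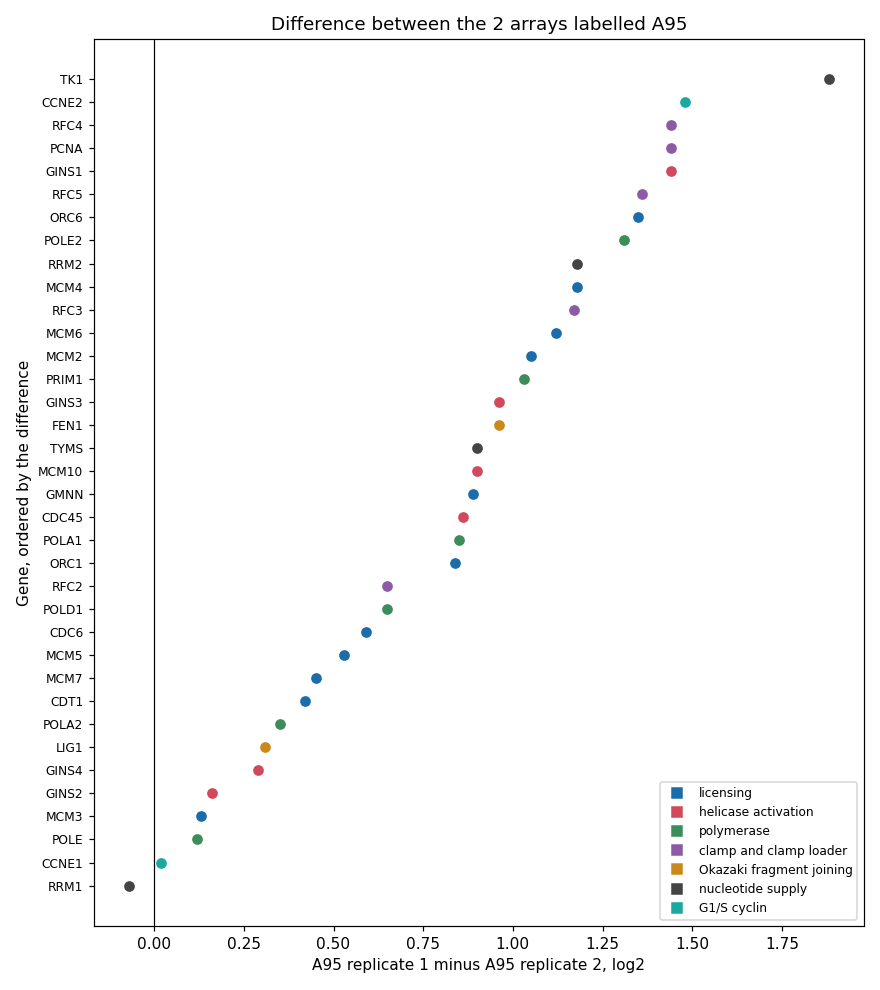
Difference between the 2 arrays labelled A95 (r1 minus r2, log2) for each of the 36 genes, ordered by size and coloured by role. The points spread from -0.07 for RRM1 to 1.88 for TK1, and licensing genes occur along most of the range.

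Other genes of the pathway, taken from lists without the 36, gave smaller medians and both directions. Of 47 measured further replication factors, 40 had a higher mean in A95 than in A39, against 58.6% of all rows, with a median of 0.51. Their median slope over the A passages was 0.12, with 25 positive and 2 negative slopes at an unadjusted p under 0.05 (2855 and 2550 of all 28869 rows) and 0 past the adjusted threshold. CLSPN, the adaptor of the replication checkpoint, had the widest range of the list, 2.67, and was lowest in A39 r2 at 7.80 and highest in A95 r1 at 10.47. TOP1, which relaxes supercoils ahead of the fork, had the smallest, 0.44. RRM2B, a small subunit of ribonucleotide reductase known to be induced by DNA damage, had a negative slope of -0.15 ± 0.04 (adjusted p = 0.0945), opposite to RRM2; it was singled out after its values were seen. It read 10.24, 10.21, 10.24 and 10.10 in A39 r2, A50 r1, A50 r2 and A58 r1, its 4 highest arrays. Of 25 E2F factors and G1/S regulators, 15 were higher and 10 lower in A95 than in A39 (median 0.28), a split near the 58.6% of all rows that were higher, and 0 passed the adjusted threshold in the trend. RBL1, a pocket protein related to RB1 and itself a known E2F target, ranged over 2.35, and TFDP2, a partner of E2F factors, over 0.42. E2F1, an activating E2F, ranged over 0.80 only and had the smallest adjusted p of that list in the trend (0.0762), with a slope of 0.12 ± 0.03, and it too was picked after its values were seen. CDKN2C was not analysed here.

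Inhibitors of cyclin-dependent kinases and markers of dividing cells were read in the same arrays. CDKN2A, whose product keeps the retinoblastoma protein active, was at 9.30 to 9.59 in the 4 arrays with low replication genes and lowest in A67 r2 and A95 r1, at 6.33 and 6.54, the arrays with the highest replication scores. Primary r2 and A39 r1, whose replication scores were 0.08 and -0.05, were also high for CDKN2A, at 9.29 and 9.25, so its high values were not limited to the 4 arrays. CDKN1A, which encodes a CDK inhibitor, was at 11.48 to 11.70 in these 4 arrays and at 10.33 to 11.16 in the other 10. CDKN1B, an inhibitor of cyclin E with CDK2, ran otherwise, at 8.97 to 9.28 in these 4 arrays, highest in A67 r2 and A95 r1 at 10.10 and 10.02, and lowest in A95 r2 at 8.09; it was added after its values were seen. CDKN1C, another inhibitor, had the smallest range of the 6 measured, 0.48. All 7 proliferation markers, MKI67 among them, had the direction of the 36 genes in each contrast, with medians of -0.83 for A39 minus primary, 0.64 for A95 minus A39 and -0.26 for B96 minus A95, and their median slope was 0.17. MKI67 was at 8.79 to 9.53 in the same 4 arrays and at 10.13 to 10.91 in the other 10. A95 r2 and B96 r1 were within 0.40 of A95 r1 for MKI67, and close to it for CCNB1 (11.95 in both, against 11.93). CDK1, BUB1, PLK1, TOP2A and AURKA were lower in both, as with CDK1 at 8.44 and 8.85 against 10.20. The median deviation of the 7 markers from their own means ran from -1.04 in A50 r1 to 0.70 in A67 r2. It was 0.66 in A95 r1, -0.05 in A95 r2 and 0.08 in B96 r1. TOP2A, 1 of the 7, is also among the 47 further replication factors. How much of the replication pattern goes with the share of dividing cells was not tested.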

How the data were processed

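RNA was extracted in biological duplicate, per the labels' protocols, and measured on Affymetrix human gene-level arrays, 1 per sample. No source says that duplicates were separate cultures, so p-values measure only the spread between samples. That spread includes the differences within a label, such as the median of -1.23 for the 36 genes in A58. Whether any of it is technical was not tested. The authors deposited 1 table of log2 values for 28869 rows and 14 arrays; the values span 0 to 14.27, from which the log base was read. How background was corrected and how probes were summarised and normalized was not given in the sources used here, nor was a genome build. Values were used as deposited. Rows were named from GEO's platform annotation, with symbols updated through the RefSeq gene table (GRCh38.p14): 19310 rows had 1 symbol, 1752 several and 7807 none, and rows with several name no gene. The row with the highest mean stood for a gene.

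Group means of the 14 arrays were estimated together in limma 3.58.1 (lmFit, eBayes; R 4.3.3; residual df 7, prior 3.43) for 3 contrasts and an F test. A slope per 10 passages was fitted to the 10 A arrays (residual df 8). P-values are two-sided and adjusted by Benjamini-Hochberg over all rows, with a threshold of 0.05. The fits were tested on simulated data. With 2 arrays a group, their number limits the precision.

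The members and lists were chosen with earlier results of these data known. Values in every array are given for the widest-ranging member of each role, the narrowest of the 36, the 3 with the smallest trend p, and, chosen after their values were seen, PCNA and TK1; from each other list the widest and narrowest gene are named. Replicate numbers did not pair the arrays: correlations of same-numbered deviations between 21 pairs of groups ran from -0.529 to 0.196, with 4 over 0.1. Alternatives were leaving out each array, the replicate block, quantile normalization, equal medians, a filter on dim rows (30th percentile), array weights, an intensity trend and robust prior, 1 row per gene, the compared groups alone, and for the trend a random block, ranks of passage and passages 39 to 67.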

Additional observations from a re-analysis of the deposited data

How the results depend on the processing

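The direction of the median over the 36 genes was the same under every alternative run for the 3 contrasts and the trend, though its size was not. Leaving out 1 array at a time, it ran from -1.03 to -0.24 for A39 minus primary, from 0.44 to 1.30 for A95 minus A39, from -0.94 to -0.01 for B96 minus A95, and from 0.18 to 0.30 per 10 passages for the trend, which was 0.39 over passages 39 to 67. CCNE1 changed sign in A39 minus primary when 1 array was left out (-0.46 to 0.31). The number of rows past the adjusted threshold, whose identity was not compared, ran with 1 array left out from 0 to 6 in A39 versus primary, 0 to 4 in A95 versus A39, 0 to 3 in B96 versus A95 and 0 to 571 in the trend, and was 2 for A95 versus A39 on the compared groups alone. For the trend it was 81, and became 159 after quantile normalization, 429 with equal medians, 271 without dim rows, 132 with an intensity trend and a robust prior, 174 with 1 row per gene, 489 with ranks of passage, 729 with passage as a random block, 2171 with array weights and 0 over passages 39 to 67. Members among them were 27 with array weights and 2 each with the random block and with ranks, and 0 under the other alternatives. With the replicate block the trend had 74 rows and the 3 contrasts 0, and no member's call changed. Averaging all rows of a gene was not run, since each member has 1 row. The cause of these changes was not tested. The table holds no background signal, so the signal below which a row no longer responds is unknown.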
